A study of Mus musculus with 6 samples.

Results

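Wnt ligands are the secreted signals of the Wnt pathway, and 9 of them, Wnt3, Wnt4, Wnt5a, Wnt5b, Wnt6, Wnt7b, Wnt10a, Wnt10b and Wnt11, were followed by gene symbol through the count tables of mouse tooth germs. They are 9 of the 19 Wnt genes and of the 23420 gene symbols in the tables. Tooth germs lacking both working copies of Smad7 (Smad7-/-, 3 libraries) were set against wild-type tooth germs (3 libraries). All embryos are C57BL/6 and labelled E15.5, around the cap stage of mouse molars, and no treatment is given. The labels name neither the Smad7 allele nor the teeth taken, and they do not say whether a library is 1 embryo or a pool. The p-values therefore measure only the spread between these libraries, which may be technical.

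Wnt proteins are lipid-modified glycoproteins that leave the cell with the help of Porcn and Wls and bind Frizzled receptors on nearby cells. With the co-receptors Lrp5 and Lrp6 they stabilise beta-catenin, which then acts with TCF/LEF factors on target genes. Some, among them Wnt5a and Wnt11, are better known for signalling without beta-catenin, through Ror2, Ryk and the planar cell polarity proteins. In the developing tooth, Wnt signals pass between epithelium and mesenchyme, and the pathway is needed for a tooth bud to go on to the cap stage. Smad7 is an inhibitor of TGF-beta and BMP signalling, and BMP and Wnt signals act together in the tooth germ.

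The libraries held 37591888 to 56575476 counts each in Smad7-/- and 47800685 to 52137318 counts in wild type. Smad7 itself had 80, 62 and 41 counts in the Smad7-/- libraries, against 1097, 934 and 859 in the wild-type libraries, so each library matched its label. The libraries also separated across genotype. On the first principal component of log2 CPM (counts scaled to a common library size, with TMM factors), which held 33.5% of the variance, Smad7-/- libraries 1 and 2 and wild-type library 1 lay at negative positions (-32.3 to -15.2). Smad7-/- library 3 and wild-type libraries 2 and 3 lay at positive positions (15 to 25.2). No label gives a date or batch for this. Smad7-/- library 3 and wild-type library 1 were female by Xist, and the other 4 libraries carried Ddx3y. As a limited check of the labelled tissue, Barx1, of molar mesenchyme, was at 79.1 to 81.2 CPM in Smad7-/- and 54.8 to 67.3 CPM in wild type. It is 1 gene of a list of 11, whose sums are given further on, and its values did not overlap between genotypes.

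The stretches of 250 bases before the annotated start of Wnt6, Wnt11 and Wnt5b are shown. Wnt6 was the ligand with the highest level, Wnt11 the one with the largest log2 fold change between genotypes, and Wnt5b the one that ran opposite to most others between libraries. They come from RefSeq (GRCm38.p6) and are written 5′ to 3′ on the strand of the gene. Capitals mark matches to the TCF/LEF motif (CTTTGAA or CTTTGAT) and to the GC-rich SMAD motif (GGCGCC), searched on both strands. The span of each gene, in mm10 (GENCODE M21), is given where its values are described.
Wnt6, chr1:74771642-74771891, forward strand: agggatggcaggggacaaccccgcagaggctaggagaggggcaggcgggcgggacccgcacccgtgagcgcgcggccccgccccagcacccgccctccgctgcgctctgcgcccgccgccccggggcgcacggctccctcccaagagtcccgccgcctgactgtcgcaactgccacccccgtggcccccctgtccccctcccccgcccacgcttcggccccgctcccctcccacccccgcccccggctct
Wnt11, chr7:98834862-98835111, forward strand: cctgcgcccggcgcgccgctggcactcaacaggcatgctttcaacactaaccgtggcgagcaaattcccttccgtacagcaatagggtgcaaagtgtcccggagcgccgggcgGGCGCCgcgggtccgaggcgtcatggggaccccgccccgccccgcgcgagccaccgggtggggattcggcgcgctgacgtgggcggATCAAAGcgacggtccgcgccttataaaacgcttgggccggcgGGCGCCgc
Wnt5b, chr6:119544348-119544597, reverse strand: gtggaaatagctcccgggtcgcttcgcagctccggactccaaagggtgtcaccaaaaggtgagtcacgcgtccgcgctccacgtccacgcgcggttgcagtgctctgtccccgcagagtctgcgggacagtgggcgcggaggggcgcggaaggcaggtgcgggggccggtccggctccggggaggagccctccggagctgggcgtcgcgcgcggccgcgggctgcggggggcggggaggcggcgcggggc

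The Wnt11 stretch held 1 TCF/LEF match, beginning 51 bases before the start, and 2 GGCGCC matches, at 137 and 8 bases before it, none of which overlapped another. The Wnt6 stretch and this Wnt5b stretch held neither motif. A second Wnt5b start held 1 TCF/LEF match, at 71 bases before it, and the Wnt4 stretch held 2 GGCGCC matches. The 9 stretches searched belong to 6 of the 9 ligands, and those of Wnt5a, Wnt7b and Wnt10a were not analysed here. Of 32851 stretches of this length in the mouse table, 7.48% held a TCF/LEF match and 9.59% held GGCGCC. The palindromic SMAD motif GTCTAGAC was found in 0.167% of them and in none of the 9, the short SMAD element GTCTG in 42.2%, among them the Wnt5b stretch shown, at 133 bases before its start, and the TATA motif TATAAA in 12.4%, among them Wnt11 at 29 bases before its start. The Wnt6 stretch was 79.6% G and C, the Wnt11 stretch 70.8% and the Wnt5b stretch 75.2%.

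Wnt6, Wnt10a, Wnt4 and Wnt5a made up most of the RNA of the 9 ligands, and their order was the same in all 6 libraries. To compare genes, CPM was divided by the exon length of each gene in kb (GENCODE M21; the annotation used for counting is not given in the sources used here). On that scale these 4 genes held 92.8% to 93.7% of the summed level of the 9 ligands in Smad7-/- and 93.2% to 95% in wild type. Wnt6, a ligand of many embryonic epithelia, alone held 45.2% to 48.4% in Smad7-/- and 47.2% to 51.5% in wild type. Wnt6 was at 110 ± 15.6 CPM per kb in Smad7-/- and 122 ± 1.36 CPM per kb in wild type (mean ± SD, n = 3 each). Its lowest library, at 92.7 CPM per kb, stood above the highest library of Wnt10a, at 64.5.

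Wnt10a, whose human counterpart is the gene most often mutated in inherited tooth agenesis, was the next at 52.3 ± 5.40 CPM per kb in Smad7-/- and 60.1 ± 3.87 CPM per kb in wild type (n = 3 each). Wnt4, a ligand of dental and other epithelia, followed at 35.2 ± 11.8 CPM per kb in Smad7-/- and 28.8 ± 5.93 CPM per kb in wild type. Wnt5a, the main ligand of dental mesenchyme, was at 22.7 ± 0.325 CPM per kb in Smad7-/- and 21.4 ± 3.03 CPM per kb in wild type. The ranges of Wnt10a and Wnt4 over the 6 libraries just met, as did those of Wnt4 and Wnt5a, although each stood above the next in 6 of 6 libraries. A clear step followed among the 9 ligands. Wnt7b, Wnt5b and Wnt11 ran from 1.97 to 6.37 CPM per kb, with ranges that overlapped and ranks that changed between libraries. Wnt10b and Wnt3 came last, at 0.500 to 1.43 and 0.506 to 0.704 CPM per kb. With the longest transcript of each gene as its length, the order of the 9 ligands by mean was the same.

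Among the 10 Wnt genes outside the set, Wnt3a and Wnt7a were also well expressed. By mean, Wnt3a stood above Wnt4 and Wnt5a in both genotypes, and Wnt7a stood below Wnt5a and above Wnt7b. Wnt3a was at 43.9 ± 5.17 CPM per kb in Smad7-/- and 49.2 ± 5.43 CPM per kb in wild type, and Wnt7a at 17.5 ± 1.10 and 20.4 ± 1.18 CPM per kb in Smad7-/- and in wild type. The 9 ligands together held 77.1% to 79.1% of the summed level of all 19 Wnt genes in Smad7-/- and 76.3% to 78.1% in wild type. Several Wnt genes lie beside another in the genome. Wnt6 and Wnt10a lie 6193 bases apart on chromosome 1 and held the highest levels of the 9. Wnt10b lies 11706 bases from Wnt1 on chromosome 15, and Wnt1 did not exceed 0.0352 CPM per kb in any library. Wnt3 lies 24328 bases from Wnt9b on chromosome 11, where Wnt9b stayed at or under 0.0940 CPM per kb.

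**Figure D1:**
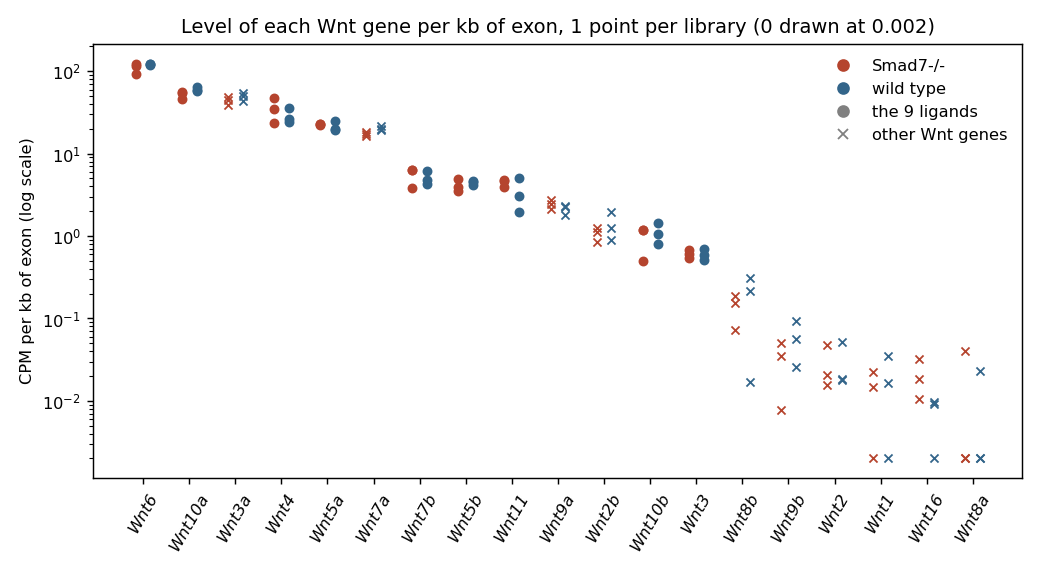
Level of each of the 19 Wnt genes, in CPM per kb of exon on a log axis, with 1 point per library (Smad7-/- in red on the left, wild type in blue on the right of each gene; circles are the 9 ligands, crosses the other Wnt genes, and a value of 0 is drawn at 0.002). Wnt6 lies above all others in every library, and Wnt10b and Wnt3 lie lowest among the 9.

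None of the 9 ligands passed the test of a difference between Smad7-/- and wild-type tooth germs. All 9 had enough counts to be kept, and they were fitted together with the other kept genes, 15284 in all. By edgeR's quasi-likelihood test 0 of 9 were called at an adjusted p under 0.05, where 0.0262% of all tested genes were called (4 genes, 2 higher and 2 lower in Smad7-/-). At an unadjusted p under 0.05 the count was also 0 of 9, against 5.14% of all genes, and it ran from 0 to 2 over the other fits. DESeq2 called 0 of 9, against 0.351% of the genes to which it gave an adjusted p (59 genes, 44 higher and 15 lower). Smad7-/- and wild-type values were fully apart for 1 of 9 ligands, Wnt10a, against 8.88% of all genes. Of the 9, 5 had a higher and 4 a lower fitted mean in Smad7-/-, and the median log2 fold change was 0.02, beside -0.00283 for all tested genes.

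Among the ligands of high level, Wnt6 (chr1:74771892-74785322) had 255, 268 and 203 CPM in Smad7-/- libraries 1 to 3, against 265, 266 and 271 CPM in the wild-type libraries. Smad7-/- library 3 was the lowest of the 6, and the others lay close together. The log2 fold change was -0.14 ± 0.11 (SE; n = 3 per group; edgeR adjusted p = 0.999). Wnt10a (chr1:74791516-74804179) had 134, 139 and 114 CPM in Smad7-/-, against 141, 159 and 144 CPM in wild type. All 3 Smad7-/- libraries lay below all 3 wild-type libraries, by little, and library 3 was again the lowest. The log2 fold change was -0.20 ± 0.10, with an edgeR adjusted p = 0.995. Wnt6 and Wnt10a are neighbours in the genome. Smad7-/- library 3 was low for both, but it was also the lowest of the 6 for Wnt4 and Wnt7b, which lie on other chromosomes. Whether the position of the genes had a part was not tested.

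Wnt4 (chr4:137277489-137299726) had 198, 147 and 98.4 CPM in Smad7-/-, against 149, 112 and 102 CPM in wild type. The Smad7-/- libraries held both the highest and the lowest of the 6 values, and the range of the wild-type libraries lay within that of Smad7-/-. Its log2 fold change was 0.29 ± 0.25 (SE; edgeR adjusted p = 0.999), and it was 0.02 without Smad7-/- library 1 and 0.51 without Smad7-/- library 3. Wnt5a (chr14:28504750-28527448) had 179, 178 and 174 CPM in Smad7-/-, against 195, 152 and 155 CPM in wild type. The 3 Smad7-/- values were nearly equal and lay inside the range of wild type. The log2 fold change was 0.08 ± 0.11 (edgeR adjusted p = 0.999). In bulk tissue, fewer cells of a type and less RNA per cell cannot be told apart.

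The middle group holds Wnt7b, known from oral ectoderm outside the tooth and from lung epithelium, Wnt11, known from cell movements and kidney branching, and Wnt5b, a relative of Wnt5a known from cartilage. Wnt11 (chr7:98835112-98855195) had 20.04, 19.04 and 16.2 CPM in Smad7-/-, against 20.9, 8.13 and 12.8 CPM in wild type. The Smad7-/- libraries lay close together, and the wild-type libraries spread around them on both sides. This was the largest fitted log2 fold change of the 9, 0.40 ± 0.30 (SE; edgeR adjusted p = 0.999), and it became 0.81 when wild-type library 1 was left out and 0.13 when library 2 was. Wnt7b (chr15:85535437-85582473) had 30.7, 31.2 and 18.5 CPM in Smad7-/-, against 30.3, 20.9 and 23.4 CPM in wild type. In each group the values fell into a higher and a lower part, and the groups overlapped. Its log2 fold change was 0.11 ± 0.21. Wnt5b (chr6:119432531-119544347) had 9.29, 10.4 and 12.97 CPM in Smad7-/-, against 10.9, 11.9 and 12.2 CPM in wild type, so that the wild-type values lay within the Smad7-/- range, with a log2 fold change of -0.10 ± 0.15. The edgeR adjusted p was 0.999 for Wnt7b and for Wnt5b.

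Wnt10b, a ligand of hair placodes and of bone formation, and Wnt3, needed for the body axis and the limb bud, were low. Wnt10b (chr15:98770712-98778150) had 152, 74 and 232 counts in Smad7-/-, against 250, 178 and 130 counts in wild type, or 4.05, 1.702 and 4.03 CPM against 4.88, 3.60 and 2.72 CPM. Smad7-/- library 2 was the lowest, and the other 5 libraries were mixed between genotypes. The log2 fold change was -0.20 ± 0.34. Wnt3 (chr11:103774150-103817957) had 79, 81 and 97 counts in Smad7-/-, against 111, 77 and 87 counts in wild type, or 2.10, 1.86 and 1.68 CPM against 2.17, 1.56 and 1.82 CPM. These groups overlapped almost wholly, with a log2 fold change of 0.02 ± 0.25. Both genes had adjusted p-values of 0.999 or more by edgeR.

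**Figure D2:**
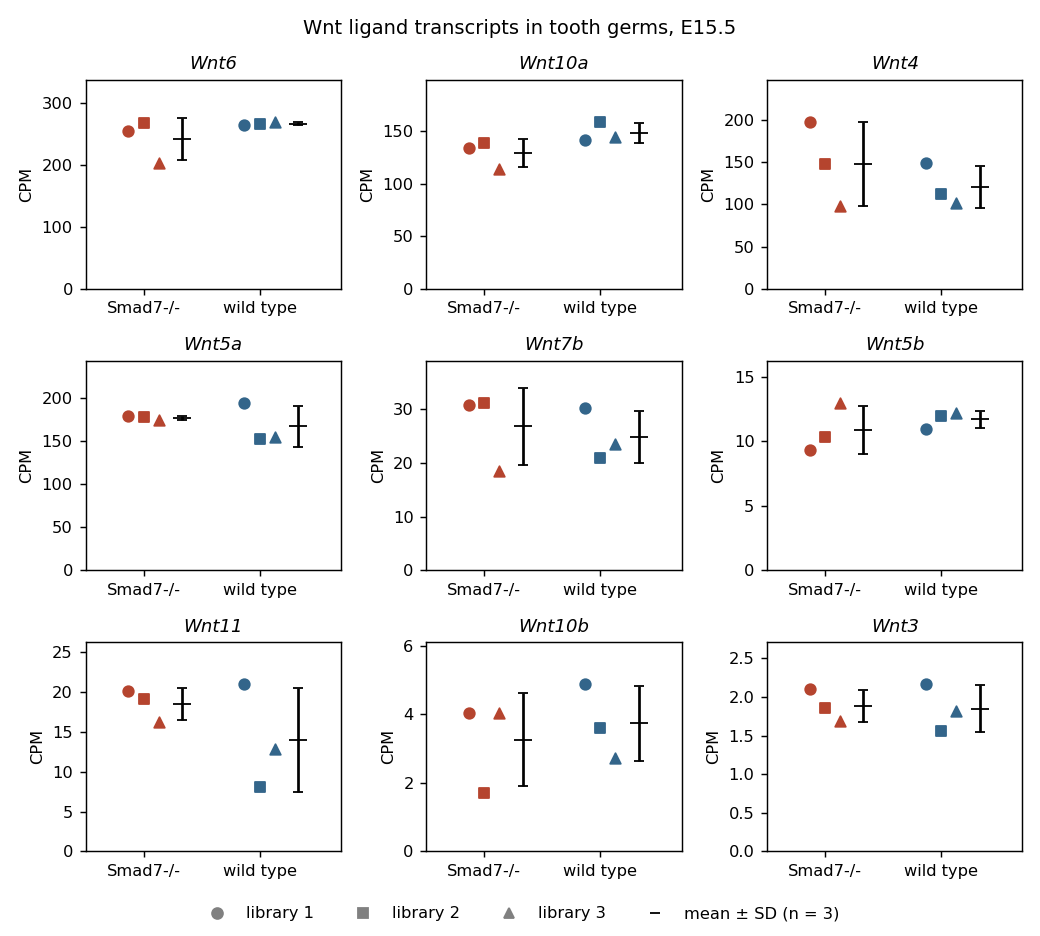
CPM of the 9 Wnt ligands in each library (Smad7-/- in red on the left, wild type in blue on the right; symbols mark library 1, 2 and 3, and the bar is the mean ± SD of 3 libraries; axes start at 0 and differ between panels). The groups overlap for every ligand other than Wnt10a, and Smad7-/- library 3 is the lowest of the 6 for Wnt6, Wnt10a, Wnt4 and Wnt7b.

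The precision differed between ligands. For Wnt5a, Wnt5b, Wnt6 and Wnt10a, 4 of the 9, the 95% interval of the fold change lay within 1.5-fold in either direction. The Wnt6 level in Smad7-/- was 0.905 times that of wild type, with an interval from 0.765 to 1.07, and that of Wnt10a was 0.870 times, from 0.746 to 1.02. Wnt5a was at 1.06 times the wild-type level, with a log2 interval from -0.15 to 0.32. Leaving out 1 library in turn moved these 4 by more than 1.5 times relative to their small log2 values. Wnt6 was at -0.03 without Smad7-/- library 3 and -0.22 without Smad7-/- library 2, and Wnt5a ran from 0.02 (wild-type library 2 left out) to 0.20 (wild-type library 1 left out). Wnt5b ran from -0.25 (Smad7-/- library 3 left out) to -0.0025 (Smad7-/- library 1 left out). Wnt10a ran from -0.26 (Smad7-/- library 2 left out) to -0.12 (Smad7-/- library 3 left out). For 8 of the 9 the interval lay within 2-fold. The exception was Wnt11, at 1.32 times with an interval from 0.823 to 2.11. Wnt10b reached down to 0.512 times and Wnt4 up to 1.82 times, so that changes of such size could not be told from none at this spread. The biological coefficient of variation that edgeR fitted ran from 9.96% for Wnt10a to 30.2% for Wnt10b, beside 15.9% for the common value of all genes.

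**Figure D3:**
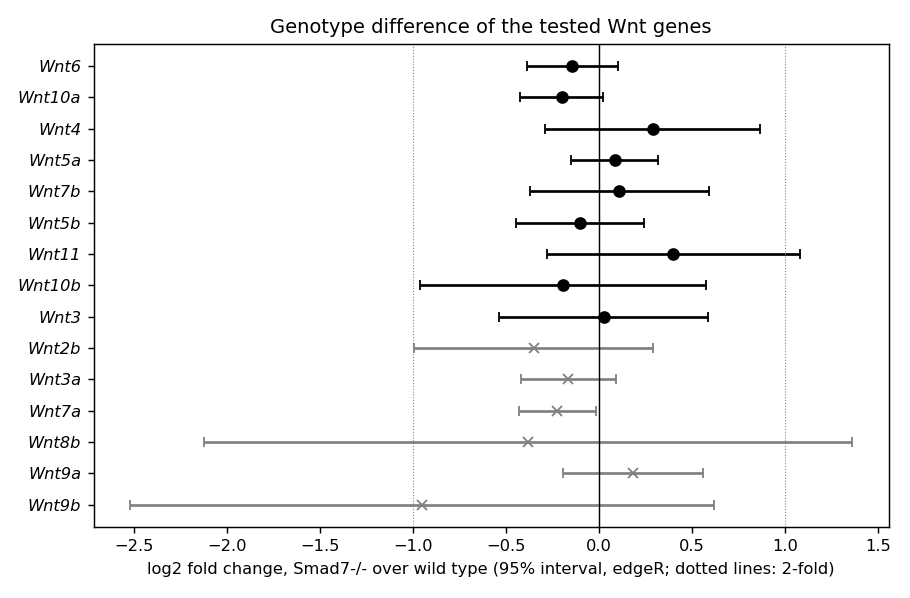
Log2 fold change of Smad7-/- over wild type with its 95% interval from edgeR, for the 9 ligands (black circles, in order of level) and the 6 other Wnt genes that were tested (grey crosses); dotted lines mark a 2-fold change. All 9 intervals of the ligands include 0, and the Wnt11 interval is the only one of the 9 that passes a dotted line.

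Values of 6 of the 9 ligands did not overlap between the 2 sides of the first component, against 28.6% of all tested genes, and each side held both genotypes. All these genes also set the component, so nothing particular to the ligands is read from that count. Wnt4 averaged 165 CPM in the 3 libraries at negative positions and 104 CPM in the 3 at positive positions, a ratio of 1.58. Wnt11 averaged 20.01 and 12.4 CPM on the negative and positive sides, and Wnt7b 30.7 and 20.95 CPM. Wnt3 and Wnt5a were also higher on the negative side, with ratios of 1.21 and 1.15, while Wnt5b was lower there, with a ratio of 0.824. Wnt6, Wnt10a and Wnt10b overlapped, with ratios of 0.993 to 1.06. The sides were defined from these libraries, and no test was made between them.

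Within the negative side, Smad7-/- minus wild type on the scale of log2(CPM + 0.1) was 0.19 for Wnt4, 0.03 for Wnt7b, -0.10 for Wnt11 and -0.05 for Wnt10a. Within the positive side it was -0.12 for Wnt4, -0.25 for Wnt7b, 0.66 for Wnt11 and -0.41 for Wnt10a. Each side holds a genotype with a single library, so these values carry no test. That library, wild-type library 1 or Smad7-/- library 3, was also the only female library of its side. Genotype and sex therefore cannot be told apart within a side. Wnt6 was at -0.02 and -0.40 on the negative and positive sides. With the side as a covariate in edgeR, the log2 fold change of Wnt4 was 0.05 ± 0.13, that of Wnt7b -0.11 ± 0.11 and that of Wnt10a -0.23 ± 0.10 (SE), and 0 of 9 were called. Wnt4 and Wnt7b had a smaller standard error with the side in the fit. The side was defined from the same values and these genes did not overlap between sides, so nothing is read from that.

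**Figure D4:**
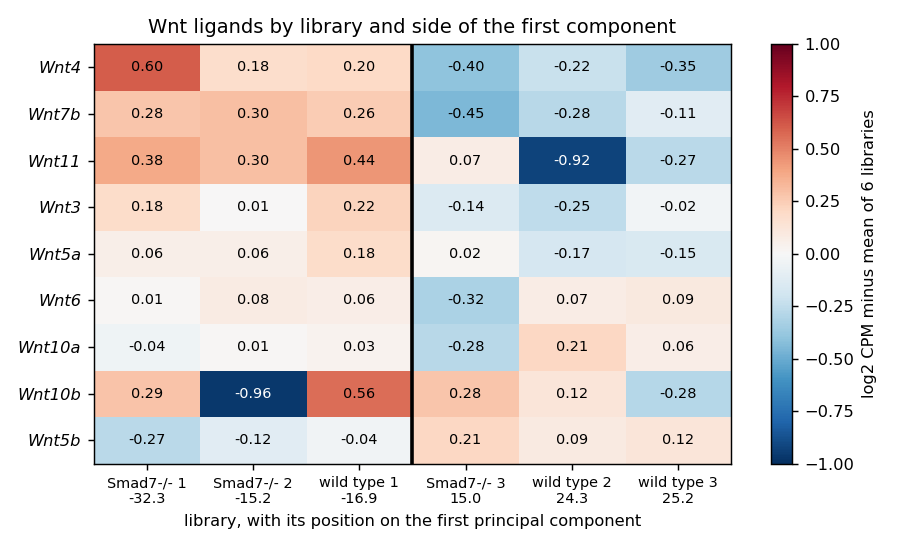
Log2 CPM of each ligand minus its mean over the 6 libraries (colour and printed value), with the libraries at negative positions of the first component left of the black line and those at positive positions right of it. Wnt3, Wnt4, Wnt5a, Wnt6, Wnt7b and Wnt11 are above their mean in all 3 libraries on the left, Wnt3 and Wnt6 by as little as 0.008. Wnt5b is below its mean there, and Smad7-/- library 3 is the lowest for Wnt6 (-0.32) and Wnt10a (-0.28).

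Across the 6 libraries, some ligands rose and fell together. As a description over 6 libraries of 1 tissue, Pearson's r of log2 CPM was 0.906 for Wnt5a and Wnt11, 0.886 for the neighbours Wnt6 and Wnt10a, and 0.869 for Wnt4 and Wnt7b. These were the highest of the 36 pairs, and they did not stand apart. Wnt3, Wnt4, Wnt5a, Wnt7b and Wnt11 all ran together, with r from 0.612 (Wnt5a and Wnt7b) to 0.906. These are the ligands that were higher on the negative side of the first component. Wnt5b ran opposite to Wnt4 (r = -0.981) and to Wnt7b (r = -0.884), and its closest ligand, Wnt10b, reached only 0.0960. The median over the 36 pairs was 0.0926. Among 10841 other genes of at least 5 CPM, those most like Wnt6 were Ddb1, Tmed9 and Nucb2, with r from 0.984 to 0.992. Those most like Wnt10a were Bcam, Trim29 and Srpx, with r from 0.981 to 0.991. With 6 libraries, r of at least 0.9 was reached by 106 genes for Wnt6 and 66 for Wnt10a.

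The rest of the pathway was read from lists of its parts. None of the 10 other Wnt genes was called (6 tested), and Wnt7a, the one with the smallest p, was at 55.6, 58.8 and 51.8 CPM in Smad7-/-, against 68.9, 61.7 and 63.5 CPM in wild type. Its groups did not overlap, with a log2 fold change of -0.22 ± 0.09 (SE; edgeR adjusted p = 0.9). Wnt3a stood at -0.17 ± 0.11. Of the 3 genes for lipidation and export of Wnt proteins none was called: Wls, the carrier to the cell surface, was at -0.10 ± 0.10, Porcn, which attaches the lipid, at 0.25 ± 0.13, and Notum, which removes it, at 0.34 ± 0.13. The receptor list had 0 of 16 called, with a median log2 of 0.01. Ptk7 and Fzd3 stood at -0.11 ± 0.09 and -0.17 ± 0.11. Fzd1 was at 55.7, 45.9 and 46.4 CPM in Smad7-/-, against 40.5, 34.1 and 37.4 CPM in wild type, with a log2 fold change of 0.40 ± 0.11 and an edgeR adjusted p = 0.652.

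Secreted inhibitors, which bind Wnt proteins or their co-receptors, had 0 of 10 tested members called by edgeR, with a median log2 of 0.11. DESeq2 called 2 of them higher in Smad7-/-, Frzb and Sfrp1. Frzb was at 60.7, 66.1 and 71.2 CPM in Smad7-/-, against 39.8, 29.2 and 49.4 CPM in wild type, with an edgeR log2 fold change of 0.74 ± 0.17 (adjusted p = 0.597 by edgeR and 0.0108 by DESeq2). Sfrp1 was at 97.3, 94.1 and 106 CPM in Smad7-/-, against 64.5, 48.1 and 79.5 CPM in wild type (adjusted p = 0.632 by edgeR and 0.0434 by DESeq2). Wif1 and Sostdc1 stood at 0.10 ± 0.13 and 0.13 ± 0.13. The R-spondins, which amplify Wnt signals, and their receptors had 0 of 9 called and a median of 0.19, with Lgr4 at 0.19 ± 0.09, Znrf3 at 0.14 ± 0.11 and Rspo3, below 1.2 CPM in every library, at 1.52 ± 0.44.

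Transducers inside the cell had 0 of 17 called and a median of 0.04. Beta-catenin itself, Ctnnb1, was at -0.09 ± 0.12, the kinase gene Csnk1a1 at -0.06 ± 0.09 and Tcf7, a nuclear partner of beta-catenin, at 0.48 ± 0.14 (edgeR adjusted p = 0.696). Of 13 target genes of beta-catenin edgeR called 1, Ccnd1, which fell, and none higher. Ccnd1 encodes cyclin D1, which other pathways also control. It was at 9.50, 11.4 and 8.73 CPM in Smad7-/-, against 22.1, 21.7 and 20.2 CPM in wild type, a log2 fold change of -1.11 ± 0.14 (edgeR adjusted p = 0.0339). The call ended whichever single library was left out (edgeR adjusted p from 0.0738 to 0.261) and with sex as a covariate (0.115). The log2 fold change stayed between -1.23 and -1.03 in those fits, and DESeq2 gave an adjusted p of 1.81e-10. Oraov1, which overlaps Ccnd1 on the other strand, was at -0.07 ± 0.11. The median of the 13 targets was 0.22, with 10 above 0 and 3 below, where 7498 of all 15284 tested genes were above 0. Whether the targets differed as a set was not tested. The planar cell polarity list had 0 of 10 called and a median of -0.17, with Celsr1 and Celsr2, the large cadherins of this system, at -0.27 ± 0.10 and -0.30 ± 0.10 and Fzd3 at -0.17 ± 0.11. At an unadjusted p under 0.05, edgeR had 3.26% of all tested genes higher and 1.88% lower in Smad7-/-. Among the lists it had 1 lower among the other Wnt genes, 1 higher in the export list, 1 higher and 1 lower among receptors, 3 higher among inhibitors and 1 higher among R-spondins and their receptors. There were also 2 higher among transducers, 5 higher and 1 lower among the targets, and 4 lower in the polarity list. DESeq2 called no member of the lists other than Frzb, Sfrp1 and Ccnd1. The lists share members, among them Notum, Lef1, Tcf7, Fzd3 and Fzd6.

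**Figure D5:**
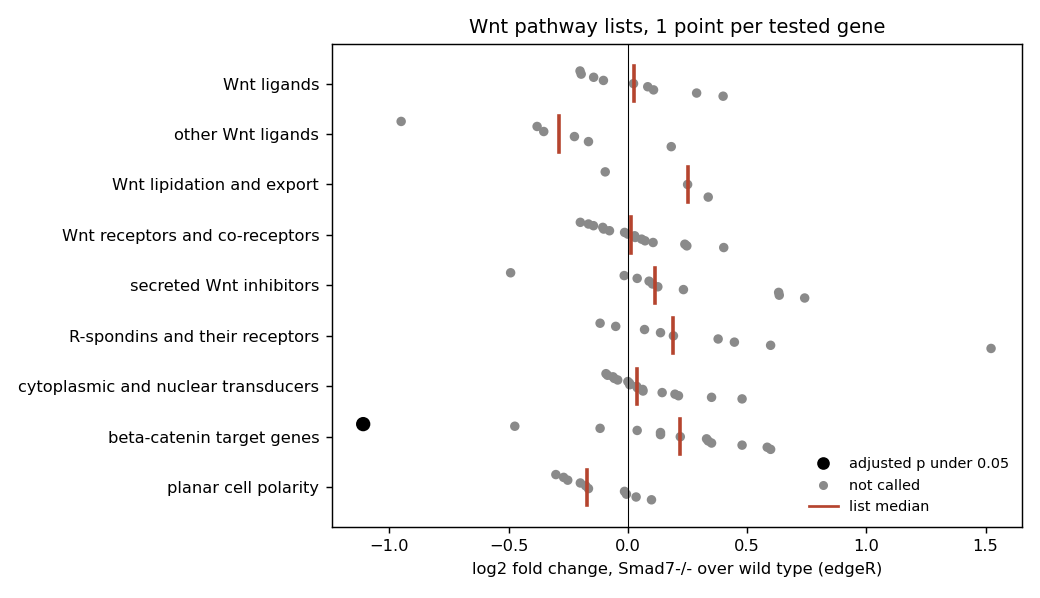
Log2 fold change of Smad7-/- over wild type for each tested gene of the 9 Wnt pathway lists (1 grey point per gene, a large black point where edgeR's adjusted p is under 0.05, a red bar at the list median). The only black point is Ccnd1 at -1.11 among the beta-catenin target genes, and the 9 ligands lie between -0.20 and 0.40.

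Markers of the cells that could carry these ligands also varied. The 11 epithelial markers summed to 9020 to 11120 CPM in Smad7-/- and 10630 to 11820 CPM in wild type, with 0 called and a median log2 of -0.09. Their lowest sum was in Smad7-/- library 3, the library that was lowest for Wnt6 and Wnt10a. The 11 dental mesenchyme markers summed to 1875 to 1901 CPM in Smad7-/- and 1488 to 1761 CPM in wild type. Most of the mesenchyme sum was Vim and Pdgfra. Vim was at 916 ± 54.2 CPM in Smad7-/- and 767 ± 98.8 CPM in wild type (SD, n = 3 each). Pdgfra was at 450 ± 64.7 and 408 ± 49.7 CPM in Smad7-/- and in wild type. Of the 11, 0 were called by edgeR and 1 by DESeq2, and the median log2 was 0.36, while Wnt5a stood at 0.08. The 6 enamel knot markers summed to 474 to 561 CPM in Smad7-/- and 568 to 687 CPM in wild type, with Fgf4 at 0 counts in 5 of the 6 libraries. Most of that sum was Shh, at 422 ± 37.2 CPM in Smad7-/- and 546 ± 55.3 CPM in wild type (SD, n = 3 each), which edgeR did not call. Cdkn1a of the same list ran the other way, at 28.8 ± 7.09 CPM in Smad7-/- and 16.8 ± 0.557 CPM in wild type, and DESeq2 called it (adjusted p = 0.00834) while edgeR did not (adjusted p = 0.536). Markers of keratinised oral epithelium were low, at 17.98 to 20.3 CPM in Smad7-/- and 21.2 to 23.7 CPM in wild type for 7 genes together. The 7 macrophage markers summed to 162 to 175 CPM in Smad7-/- and 92.4 to 130 CPM in wild type, so the sums did not overlap. The sums of the dental mesenchyme, enamel knot, keratinised oral epithelium and red blood cell markers did not overlap either. EdgeR called 0 of the 7 macrophage markers and DESeq2 called 2. All 7 were above 0 in log2, where 7498 of all 15284 tested genes were. So were all 6 endothelial markers and 10 of the 11 dental mesenchyme markers. The sums of the 6 endothelial markers were 316 to 359 CPM in Smad7-/- and 226 to 342 CPM in wild type. The 6 neuronal markers summed to 278 to 348 CPM in Smad7-/- and 321 to 362 CPM in wild type, and the 6 Schwann cell markers to 101.2 to 111 CPM in Smad7-/- and 90.3 to 118 CPM in wild type. The 6 cartilage markers summed to 85.7 to 96.1 CPM in Smad7-/- and 83.4 to 93.5 CPM in wild type, with 1 at 0 counts in every library. Each of these 3 sums was mostly 1 gene. For neurons it was Tubb3, at 262 ± 31.6 CPM in Smad7-/- and 298 ± 21.6 CPM in wild type (SD). For Schwann cells it was Mbp, at 79.5 ± 8.09 and 79.7 ± 12.4 CPM in Smad7-/- and in wild type. For cartilage it was Sox9, at 68.55 ± 10.5 and 65.95 ± 3.37 CPM in Smad7-/- and in wild type. The 7 skeletal muscle markers summed to 4.47 to 6.21 CPM in Smad7-/- and 5.99 to 7.69 CPM in wild type. The 5 red blood cell markers found summed to 14.6 to 17.3 CPM in Smad7-/- and 19.2 to 33.7 CPM in wild type. Of these, 2, Hba-a1 and Hba-a2, were at 0 counts in every library, and Hbb-bs and Hbb-bt were not among the symbols. Most of the sum was Alas2, at 14.8 ± 0.968 CPM in Smad7-/- and 22.8 ± 7.23 CPM in wild type (SD), so it does not measure globin RNA. Whether any of these cells had a part in the levels of the ligands was not tested.

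Counting could touch a few ligands. The library kit does not record strand. In GENCODE M21, Wnt5a shares 358 exon bases with the antisense gene Gm2670, Wnt7b 324 with AU022754 and Wnt11 364 with the pseudogene Gm8398. Gm2670 and Gm8398 were not analysed here, and AU022754 was at 0.207 to 0.399 CPM in Smad7-/- and 0.283 to 0.544 CPM in wild type. Fbxl14 lies inside an intron of Wnt5b and shares no exon base with it.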

How the data were processed

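Per the labels' protocols, RNA from tooth germs went into TruSeq RNA libraries. The authors deposited raw counts per gene symbol, 1 table per library; HISAT2, featureCounts, DESeq2 and mm10 are named in the submitters' processing notes without versions. Of the symbols, 27 had become dates (at most 0.223% of a library's counts). All 6 libraries were fitted with edgeR 4.0.16 in R 4.3.3: filterByExpr (minimum count 10, total 15) kept 15284 genes, TMM factors were 0.984 to 1.02, and the quasi-likelihood F-test used Benjamini-Hochberg adjusted p-values across all kept genes (threshold 0.05). Intervals are log2 fold change ± the t quantile times its SE. Alternatives used DESeq2 1.42.0, limma-voom (limma 3.58.1), other size factors, no filter, covariates, and each library left out. The fit was tested on simulated data. Correlations used log2 CPM with a prior count of 2. Figures used matplotlib 3.10.9.

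The ligands and lists were chosen with earlier results of these data known. Named beside the ligands were members of each pathway list that edgeR called. Where none was called, the 2 with the highest mean CPM and the one with the smallest p were named. Porcn, Sfrp1, Oraov1, Wnt1, Wnt9b, AU022754, Barx1, Shh and Cdkn1a were added after their values were seen. So were Tubb3, Mbp, Sox9, Vim and Pdgfra. An item withheld for evaluation is not reported here. Depth was 37591888 to 56575476 counts, with no molecular identifiers, so that counts can include copies of 1 molecule.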

Additional observations from a re-analysis of the deposited data

How the results depend on the processing

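No alternative called any of the 9 ligands. At an unadjusted p under 0.05 there were 2 ligands with the replicate block and without wild-type library 1, and 1 with the component side as a covariate and without Smad7-/- library 2 or 3. Of 117 ligand values under alternatives, 9 changed sign, all of Wnt3, Wnt7b and Wnt10b; the other 6 ligands kept theirs. With the side of the first component as a covariate Wnt3 was at -0.0667 and Wnt7b at -0.111 (log2). Leaving out each library in turn, Wnt3 ran from -0.0857 to 0.148, Wnt7b from -0.0172 to 0.32 and Wnt10b from -0.38 to 0.11. The median of the 9 ran from -0.0857 to 0.148 over all alternatives. The 4 genes called in all became 59 with DESeq2 (44 higher and 15 lower, against 2 and 2), whose filter also differs, and 1 to 7 with a library left out (2, 1 and 7 without Smad7-/- library 1, 2 and 3). Smad7 ran from -4.21 to -3.46, and its adjusted p was 0.0887 without Smad7-/- library 2. With the replicate number as a replicate block, edgeR called 4 genes and 0 ligands, with Wnt4 at 0.25 and Wnt10a at -0.20; same-numbered libraries share only a number, with residual correlations of 0.169, -0.03 and 0.09. Wnt3 and Wnt10b had the fewest counts of the 9, at 74 to 250 per library. Their standard errors were 0.253 and 0.344, beside 0.249 for Wnt4, which had 4868 to 7640 counts per library. The causes of the changes between fits were not tested.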
